A study of Mus musculus with 2 samples.

Results

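The genes described here are 10 genes of the trophoblast lineage, the cells that form the placenta, measured in mouse embryonic stem cells with and without Tcl1. They were chosen by symbol, as the rows of the deposited table whose platform annotation gave Cdx2, Eomes, Elf5, Tfap2c, Hand1, Ascl2, Krt8, Krt18, Gata3 or Plac1, with the Rhox genes left out. All 10 were found, on 12 probes, among 19087 named genes.

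The study hybridised 2 Agilent arrays, each with RNA of a Tcl1 stable transformant against RNA of a Tcl1 gene disruptant, and its titles give the search for Tcl1 target genes as the aim. Both cell types of each array carried the same deletion: a PGK-puro cassette had replaced parts of exons 2 and 3 on both copies of Tcl1. The transformants also carried CAG-Tcl1ireszeopA, a vector that expresses Tcl1 from the constitutive CAG promoter. Array 1 compared transformant clone 1 in Cy5 with disruptant clone 4 in Cy3, and no control vector is stated for that disruptant. Array 2 compared transformant clone 4 in Cy3 with disruptant clone 6 in Cy5, which had been stably transfected with CAG-EGFP. Per the labels the Tcl1 vector went into disruptant clone 4, so the transformants share that origin, and each line is 1 clone. The labels do not say whether disruptant clone 6 also came from clone 4, so the lines compared on array 2 may differ in origin as well as in the vector. The cells were grown without feeder cells, with LIF and serum on gelatin.

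Values below are log2 ratios of transformant over disruptant, with array 1 given before array 2, and a mean carries its SD over n = 2 arrays. Negative values mean less RNA in the transformant. The log10 scale of the deposited numbers is inferred, their direction (Cy5 over Cy3) is likely but not stated, and with the opposite reading every sign would turn. Only ratios were used, so whether a gene was above background, and which of the genes was the more abundant, is unknown. In bulk RNA, fewer cells of a type and less RNA per cell cannot be told apart. Tcl1 itself had 1 probe with −0.37 and 0.17. The sources used here do not place that probe in the deleted or the restored part of the gene, and it therefore checks nothing. Over all 30110 entries tested the arrays ran weakly against each other (Pearson r = −0.19 across entries, which are not independent replicates).

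The trophectoderm is the outer layer of the blastocyst and the first lineage to separate from the cells that give embryonic stem cells. Its fate is set by transcription factors, of which Cdx2, Eomes, Gata3 and Tfap2c act early and Elf5 sustains trophoblast stem cells. In mouse embryonic stem cells Oct4 holds Cdx2 down, and the Elf5 promoter is closed by DNA methylation. Hand1 and Ascl2 then direct giant cells and the spongiotrophoblast, Krt8 and Krt18 form the paired keratin filaments of simple epithelia, and Plac1 is a placental gene of the X chromosome.

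No trophoblast gene passed the test across all entries. Tfap2c, Elf5 and Eomes lay below 0 on both arrays, Hand1 lay above 0 on both, and the other 6 had opposite signs. Tfap2c was furthest from 0, with a mean of −0.92 ± 0.10 (SD, n = 2), or 1.89-fold less RNA in the transformants. Limma called 0 of the 10 genes, against 0% of all 30110 entries in either direction, and the adjusted p of each was 1. Before adjustment, 947 entries had a limma p under 0.05. Among the 10 genes these were Tfap2c and Eomes, 2 lower genes against 1.68% of all entries, and 0 higher ones against 1.46%. The 10 genes were chosen with earlier results of these data known, and whether they exceed that share was not tested. The 3 genes with negative values on each array stand beside 17% of all entries and 19.4% of named genes, and the 1 gene with positive values beside 21% and 22.1%. With each array centred on the median of its entries that were not 0, Gata3 joined those below 0 on both arrays, which made 4, while the count over all entries rose from 5116 to 7689. The 6 of opposite sign stand beside 53.4% and 55.4%, so the largest class of the trophoblast genes was near its background. The median of the 10 genes was −0.29 on array 1, −0.37 on array 2 and −0.18 for the mean over arrays, where the median over all entries was 0.

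**Figure D1:**
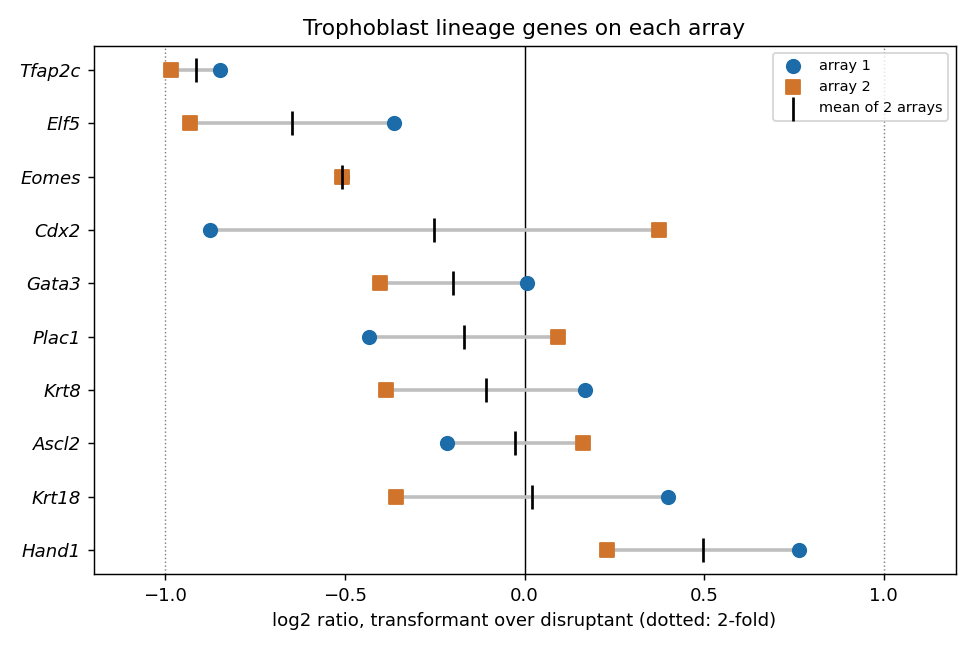
Log2 ratio of transformant over disruptant for each of the 10 trophoblast genes. Circles are array 1, squares array 2 and black bars their mean, and dotted lines mark a 2-fold difference. Tfap2c, Elf5 and Eomes lie left of 0 on both arrays and Hand1 right of 0 on both, and no gene reaches 2-fold on either array.

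Sequences of the genes' promoters are shown for the members whose values are set side by side below. RefSeq windows of build GRCm38.p6 were matched by symbol for 8 of the 10 genes. Tfap2c and Hand1 had none. Each stretch holds the 250 bases before an annotated start site, written 5′ to 3′ on the gene's strand. The first 3 belong to the members below 0 on both arrays that had a window. Eomes lies at chr9:118477939-118478188 on the plus strand, and Elf5 has windows at chr2:103411848-103412097 on the plus strand and chr2:103423818-103424067 on the plus strand. Cdx2, at chr5:147307250-147307499 on the minus strand, had the widest gap between arrays. Krt8, at chr15:102004343-102004592 on the minus strand, and Krt18, at chr15:102027966-102028215 on the plus strand, are neighbours on the chromosome whose proteins pair. Capitals mark GCCNNNGGC, the palindromic core that AP-2 factors such as the Tfap2c protein are known to bind.
Eomes: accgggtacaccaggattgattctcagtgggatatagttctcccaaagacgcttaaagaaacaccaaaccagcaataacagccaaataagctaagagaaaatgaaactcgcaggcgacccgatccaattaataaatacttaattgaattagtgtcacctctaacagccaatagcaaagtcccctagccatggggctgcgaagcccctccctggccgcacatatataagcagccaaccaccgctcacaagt
Elf5 first window: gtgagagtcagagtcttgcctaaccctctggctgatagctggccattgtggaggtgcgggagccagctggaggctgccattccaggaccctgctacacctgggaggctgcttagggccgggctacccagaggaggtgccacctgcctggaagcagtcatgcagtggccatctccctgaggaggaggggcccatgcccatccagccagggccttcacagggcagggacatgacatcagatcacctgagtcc
Elf5 second window: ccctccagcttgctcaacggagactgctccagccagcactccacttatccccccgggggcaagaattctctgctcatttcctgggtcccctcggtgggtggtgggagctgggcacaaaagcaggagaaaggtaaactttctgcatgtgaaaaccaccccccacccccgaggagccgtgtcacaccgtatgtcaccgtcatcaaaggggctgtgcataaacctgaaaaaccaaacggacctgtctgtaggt
Cdx2: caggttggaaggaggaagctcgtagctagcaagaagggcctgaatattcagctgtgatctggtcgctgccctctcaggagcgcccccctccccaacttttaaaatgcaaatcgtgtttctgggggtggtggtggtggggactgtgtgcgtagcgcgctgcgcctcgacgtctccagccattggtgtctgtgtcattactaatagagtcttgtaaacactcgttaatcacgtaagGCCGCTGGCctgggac
Krt8: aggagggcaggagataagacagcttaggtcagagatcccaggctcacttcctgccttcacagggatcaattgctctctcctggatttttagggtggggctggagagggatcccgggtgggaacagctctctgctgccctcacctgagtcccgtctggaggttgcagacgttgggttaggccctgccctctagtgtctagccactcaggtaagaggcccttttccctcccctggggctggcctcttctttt
Krt18: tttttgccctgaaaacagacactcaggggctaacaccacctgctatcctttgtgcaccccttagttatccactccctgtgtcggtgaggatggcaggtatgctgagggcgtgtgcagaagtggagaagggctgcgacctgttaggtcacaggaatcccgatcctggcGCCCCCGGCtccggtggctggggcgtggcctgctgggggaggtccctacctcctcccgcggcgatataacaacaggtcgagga

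Searched on both strands, the core GCCNNNGGC was in 3 of the 10 windows of the trophoblast genes, those of Cdx2, Gata3 and Krt18, and in 13.7% of all 32851 windows. The match of Cdx2 lies from −16 to −8 relative to the start site and that of Krt18 from −83 to −75. Gata3 held 3 matches between −246 and −213. The windows differed in base composition. GC content was 46.4% in Eomes and 70.0% in Gata3, against a median of 52.4% over all windows. The GC box GGGCGG was in a window of Ascl2, Gata3 and Plac1 and in 32.7% of all windows. TATAAA was in none of the members' windows (0) and in 12.4% of all. Of the genes with the core, Cdx2 had −0.88 and 0.38, Krt18 had 0.40 and −0.36, and Gata3 had 0.0062 and −0.40. Whether the core bears on these values was not tested.

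Among the regulators of trophoblast fate, Tfap2c, which encodes the AP-2 gamma factor, had −0.85 on array 1 and −0.98 on array 2. These values differed by little from each other beside their distance from 0. On array 1 it stood at percentile 3.13 of the named genes and on array 2 at percentile 5.71. Its mean stood at percentile 1.34 (limma adjusted p = 1, unadjusted p = 0.0115). Tfap2c is also expressed in embryonic stem cells and primordial germ cells of the mouse, so it is not a marker of trophoblast alone. It was the only gene of the 10 that was at least 1.5-fold lower on both arrays, which 0.95% of all entries were, and 0 were as far higher on both, against 0.362% of all entries.

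Eomes, a T-box factor that trophoblast stem cells need, gave −0.51 on both arrays, which is 1.42-fold less in the transformants. Its deposited values were equal in size to the last digit, so its SD was 0, and 8 entries in all shared such equality at a value other than 0. The unadjusted limma p of 0.0234 for Eomes rests on a spread borrowed from the other entries. Its mean stood at percentile 6.59 of the named genes. Eomes is also a gene of the primitive streak, so its ratio does not mark trophoblast by itself.

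Elf5, an Ets factor, had −0.36 on array 1 and −0.93 on array 2. Both values were below 0, and array 2 lay much further down. The mean of −0.65 ± 0.40 was 1.56-fold lower in the transformants and stood at percentile 3.98 of the named genes (limma unadjusted p = 0.108). Whether the Elf5 probe was above background is unknown, so a fold of this gene has no stated floor.

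Cdx2, the homeobox factor that specifies trophectoderm, had −0.88 on array 1 and 0.38 on array 2. The arrays pointed in opposite directions, so the mean of −0.25 ± 0.89 had to lie within its SD of 0. On array 1 it was at percentile 2.92 of the named genes, a little below Tfap2c, and on array 2 at percentile 88.0. Gata3, a zinc finger factor that acts beside Cdx2, had 0.0062 and −0.40. It was close to 0 on array 1, where its sign rests on a small value, and below 0 on array 2, with a mean of −0.20 ± 0.29.

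Of the factors of later differentiation, Hand1, which promotes trophoblast giant cells and also acts in heart and extraembryonic mesoderm, was above 0 on both arrays. Its values were 0.76 and 0.23, with array 1 the higher. The mean of 0.50 ± 0.38 was 1.41-fold higher in the transformants, at percentile 97.8 of the named genes (limma adjusted p = 1, unadjusted p = 0.149). Ascl2, an imprinted gene for a basic helix-loop-helix factor of the spongiotrophoblast, had −0.22 and 0.16 as the average of 2 probes. The first probe gave −0.13 and 0.03 and the other −0.30 and 0.30. Both probes changed sign between the arrays, so the mean of −0.03 ± 0.27 had to lie within its SD of 0.

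The keratin pair shared a sign on each array, and that sign changed between the arrays, as it did for 55.4% of named genes. Krt8, the type II keratin, had 0.17 and −0.39, and its partner Krt18, the type I keratin, had 0.40 and −0.36. Both were above 0 on array 1 and below 0 on array 2. The probes of Krt8, 2 in number, repeated each other closely, with 0.15 and −0.37 for the first and 0.18 and −0.40 for the other. Krt18 minus Krt8 was 0.23 on array 1 and 0.03 on array 2. The means were −0.11 ± 0.39 for Krt8 and 0.02 ± 0.54 for Krt18, each within its SD of 0, which opposite signs on 2 arrays fix. Plac1 ran the other way, with −0.43 and 0.09 and a mean of −0.17 ± 0.37.

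**Figure D2:**
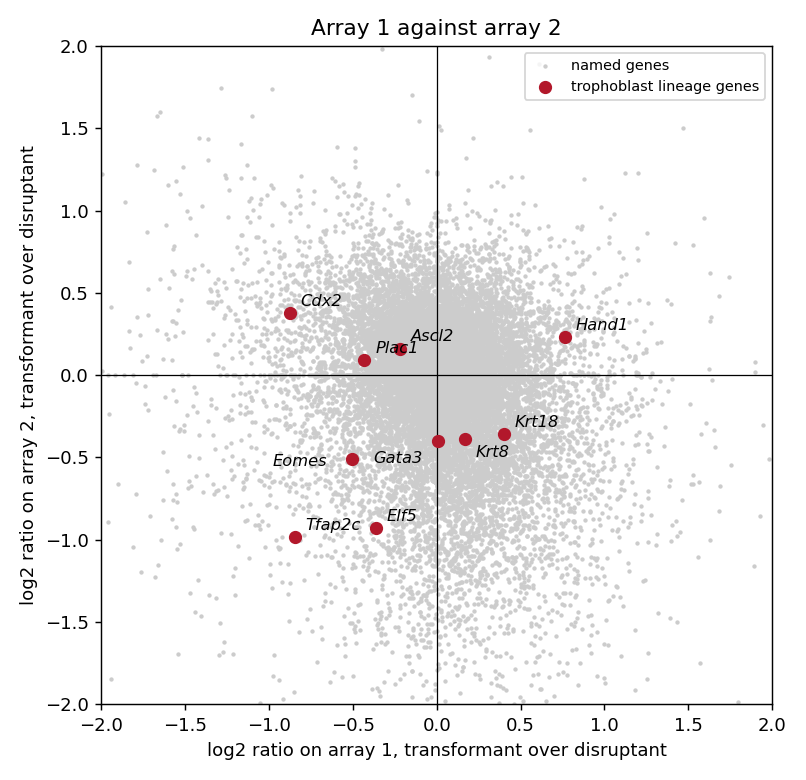
Log2 ratio on array 1 (horizontal axis) against array 2 (vertical axis) for the named genes in grey and the 10 trophoblast genes in red, with 130 named genes outside the plotted range of 2 in either direction. Tfap2c, Elf5 and Eomes lie at the lower left, Hand1 at the upper right, the keratins and Gata3 at the lower right, and Cdx2, Plac1 and Ascl2 at the upper left.

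Ordered by mean, the genes ran from Tfap2c through Elf5, Eomes, Cdx2, Gata3, Plac1, Krt8, Ascl2 and Krt18 to Hand1. The ranges of the 2 array values overlapped for every neighbouring pair in that order. That comparison does not pair the genes by array. Tfap2c lay below Elf5 and Krt18 below Hand1 on each array, and the other neighbours changed order between the arrays. The mean lay further from 0 than its SD for 4 genes, Tfap2c, Eomes, Elf5 and Hand1, and within its SD of 0 for the other 6. These 4 are the genes of equal sign on both arrays. With 2 arrays, a gene of opposite signs always has a mean within its SD of 0. For the other 6 the SD rule therefore adds nothing to their signs. Among named genes, 19.4% were below 0 on both and 22.1% above. The share of all entries that meet the SD rule was not computed, so the count of 4 has no background beside it.

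The dyes were swapped between the arrays, so a gene of opposite sign had the same dye the brighter on both. Cy5 was the brighter on both arrays for Krt8, Krt18 and Gata3, with means of 0.28, 0.38 and 0.20 for Cy5 over Cy3. Cy3 was the brighter on both for Cdx2, Plac1 and Ascl2, with −0.63, −0.26 and −0.19. Among the genes of equal sign on both arrays, the mean of Cy5 over Cy3 was 0.28 for Elf5, 0.27 for Hand1, 0.07 for Tfap2c and 0 for Eomes. Over all entries the median absolute value was 0.17 for this mean and 0.14 for the mean of transformant over disruptant. A dye effect and a difference between the pairs of clones cannot be told apart on 2 arrays.

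Other genes of the lineage were taken from lists. Of 19 regulators of trophectoderm and trophoblast stem cells, 18 were measured. Both arrays put 6 of them below 0, beside 19.4% of named genes, and 2 above 0, beside 22.1%. Another 10 had opposite signs, beside 55.4%. The 2 above 0 were Fgfr2, with 0.02 and 0.50, and Lats2, with 0.23 and 0.04. None of the 18 passed (0), and the median of their means was −0.05. Ets2, an Ets factor of trophoblast stem cells, had −0.52 and −0.36. Tead4, which switches on Cdx2 downstream of Hippo signalling, had −0.28 and −0.40, and Gata2 had −0.27 and −0.38. The probes of Gata2 differed in size, with means of −0.51 and −0.15. Esrrb, a nuclear receptor of both trophoblast and embryonic stem cells, had −0.29 and −0.21. Among those of opposite sign, Bmp4 had the highest value on its smaller array, with −0.71 and 0.63, and Id2 the widest gap, with 1.09 and −0.29.

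Of 30 placental genes 24 were measured. Both arrays put 6 of them below 0, beside 19.4% of named genes, and 3 above 0, beside 22.1%. Another 14 had opposite signs, beside 55.4%, and 1 (Ctsj) was listed at 0 on both. The 3 above 0 were Wnt7b, with 0.27 and 0.18, Pcdh12, with 0.22 and 0.13, and Prl8a9, with 0.11 and 0.18. None of the 24 passed (0), and the median of their means was 0.03. Plac8, a cysteine-rich protein gene found in placenta and in myeloid and other tissues, had −1.47 and −1.33. Its mean of −1.40 ± 0.10 was 2.64-fold lower in the transformants, further from 0 than that of any of the 10 trophoblast genes (limma adjusted p = 1, unadjusted p = 0.0055). It was at least 2-fold lower on both arrays, as 0.193% of all entries were, while 0 of the 10 trophoblast genes reached that size in either direction, beside 0.0166% of all entries for the higher one. Plet1, a surface protein of trophoblast progenitors, had −1.01 and −0.91, a mean of −0.96 ± 0.07. The probes of Plet1 were both below 0 on each array, with means of −0.53 and −1.39. Phlda2, an imprinted gene that restrains placental growth, had −0.84 and −0.55. Esx1, an X-linked homeobox gene of the placental labyrinth, had −1.17 and −0.39. Peg10, an imprinted gene of retrotransposon origin needed for the placenta, had opposite signs, with 1.32 and −1.45.

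Of 22 epithelial keratins and junction genes 20 were measured. Both arrays put 5 of them below 0, beside 19.4% of named genes, and 5 above 0, beside 22.1%. Another 10 had opposite signs, beside 55.4%. None passed (0), and the median of their means was 0.01. Krt19, a simple-epithelium keratin of the trophectoderm, had −0.70 and −0.38. Pkp2, a plaque protein of desmosomes, had −0.37 and −1.63. The claudins of tight junctions Cldn7, with 1.09 and 0.75, and Cldn3, with 0.67 and 0.55, lay the other way. Cdh1, which encodes E-cadherin, had 0.39 and −0.83. The epithelial genes had no common sign. Krt7 had 0.46 and −0.32, above 0 on array 1 and below 0 on array 2 like Krt8 and Krt18. Cdh1, Epcam, Dsg2, Vil1 and Dsp also lay so, and Krt5, Krt14, Cdh3 and Gjb2 lay the other way round.

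**Figure D3:**
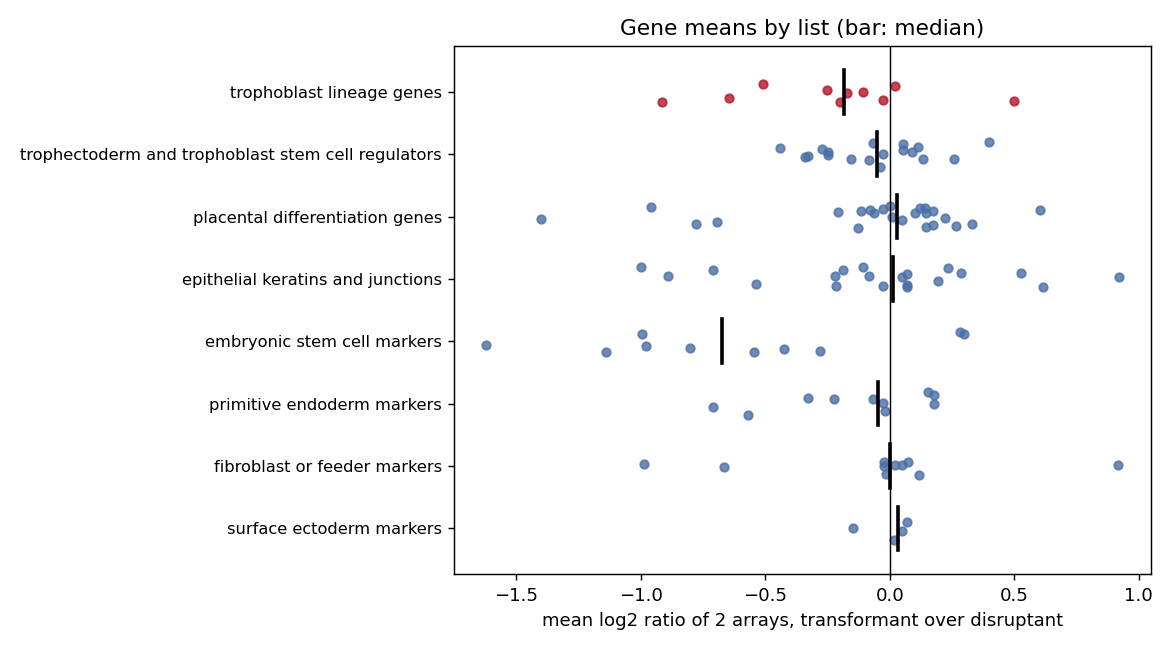
Mean log2 ratio over the 2 arrays for each gene, by list, with the black bar at the list's median and points spread vertically for sight only. The trophoblast genes (red) have a median of −0.18, and the embryonic stem cell markers lie furthest left with a median of −0.67.

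Markers of other cell types were read beside these values. Both arrays put 7 of 10 embryonic stem cell markers below 0, beside 19.4% of named genes, and 2 above 0, beside 22.1%. The 2 above 0 were Pou5f1, which encodes Oct4, with 0.10 and 0.50, and Utf1, with 0.10 and 0.46. The medians of the 10 markers were −0.81 on array 1 and −0.62 on array 2. Zfp42, with −1.54 and −1.70, Nanog, with −0.95 and −1.04, and Dppa5a, with −0.96 and −1.0, had lower values than Tfap2c on each array. For Dppa5a this holds for the average of 2 probes, which gave −1.08 and −0.92 on array 2, where Tfap2c had −0.98. Klf4 had −1.55 and −0.72. Klf2 had −1.19 and 0.34. Of 10 primitive endoderm markers 2 were below 0 on both arrays, Sparc (−0.52 and −0.90) and Pdgfra (−0.10 and −0.35), and 8 had opposite signs, among them Lamb1 (0.33 and −1.47). The probes of Pdgfra disagreed on array 1, with 0.32 and −0.51. Of 10 fibroblast or feeder markers 2 were below 0 on both, Thy1 (−1.06 and −0.91) and Twist2 (−1.11 and −0.22), and 2 above, Pdgfrb (1.38 and 0.46) and Lum (0.12 and 0.12), with S100a4 at −0.13 and 0.18 as the average of 2 probes that disagreed in sign on each array. Of 4 measured surface ectoderm markers 1 was below 0 on both, Krt15 (−0.01 and −0.28). The other 3 had opposite signs, among them Krt5 (−0.04 and 0.18). The part of these cell states in the values of the trophoblast genes was not tested.

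By distance over the 2 array values, the named genes most like Tfap2c were Axin2 (−0.85 and −1.003, at a distance of 0.02), Tsx (−0.86 and −0.96, at 0.02) and Prep (−0.82 and −1.003, at 0.04). Likeness over 2 arrays is a weak measure, and 51 named genes lay within 0.25 of Tfap2c.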

How the data were processed

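The deposited table holds 1 value per spot and array for 43790 spots. The authors used Agilent Feature Extraction, per the submitters' processing notes. The sources used here do not give its version or how background and dyes were corrected. The scale was taken to be log10, as that program writes its log ratio so, and each array's deposited log10 values had a median of 0. A factor of 3.32 turned them into log2 ratios. Array 2 then had its sign changed, following its dye labels. Exact zeros made up 6.47% and 6.99% of spots.

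Probes were named through GEO's platform annotation: 32042 spots had 1 symbol, 47 several and 11701 none listed. Of the unlisted, 725 below −1 on both arrays, which no listed spot was (0), were left out as control spots. Probes of 1 symbol were averaged, which gave 30110 entries. In R 4.3.3, limma 3.58.1 (lmFit, then eBayes) compared each entry's mean over the arrays with 0. The test was two-sided, p-values were adjusted by Benjamini-Hochberg across all entries with a threshold of 0.05, and there was 1 residual degree of freedom beside 0.861 prior ones. On simulated data, 2 arrays were checked only for estimates near the simulated size, and calling was checked on more arrays than 2. The smallest unadjusted limma p over all entries was 0.0025, and no entry passed after adjustment. A count of 0 called therefore does not show that a gene was unchanged. Flipping signs over 2 arrays allows no two-sided p under 0.5. Clones are the only replicates, and 2 arrays limit the precision. The difference between the arrays holds the spread between these pairs of clones together with any dye effect. Limma also borrows spread from the other entries, so the p-values do not measure the spread between clones alone.

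The genes and lists were chosen with earlier results of these data known. All 10 genes are named. From each list the text names up to 4 genes of equal sign on both arrays, those that rank highest by the smaller of their absolute values, and the 1 gene of opposite signs that ranks highest so. Outside this rule, Id2, Lgals3, Krt23, Fgfr2, Lats2, Wnt7b, Pcdh12, Prl8a9, Pou5f1 and Utf1 were named after their values were seen. So were Krt7, Epcam, Dsg2, Vil1, Dsp, Krt14, Cdh3 and Gjb2. The likeness rule takes the 3 genes nearest to the member that ranks highest. The alternatives tried were other centring, other treatment of probes, zeros and control spots, array 2 left as deposited, a log2 reading, 1 array at a time, other variance models and a 1.5-fold limit.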

Additional observations from a re-analysis of the deposited data

How the results depend on the processing

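Limma called 0 of the 10 genes and 0 entries under every alternative tried that has a test. The 10 means kept their sign with other centring, the median over probes, exact zeros left out and a log2 reading, and both probes of Krt8 and of Ascl2 kept it singly. With other centring 4 genes were below 0 on both arrays in place of 3, and 5 had opposite signs in place of 6, while the entries below 0 on both rose from 5116 to 7689. A log2 reading brought the median of the 10 from −0.18 to −0.06. With array 2 not turned, which goes against the dye labels and cancels a difference that the arrays share, 4 means changed sign: Elf5 to 0.28, Tfap2c to 0.068, Krt8 to 0.28 and Gata3 to 0.20. The mean of Eomes became 0 in that setting, as its values were equal in size on the arrays. Then 3 genes were above 0 on both arrays, in place of 1, and the median was 0.14. At a 1.5-fold limit 1 gene, Tfap2c, was lower on both arrays, in place of 0. With 1 array left out, a value had no test. The lone array had 6 genes below 0 and 4 above 0 in either case, and the value ranged from −0.88 to 0.38 for Cdx2, from −0.22 to 0.16 for Ascl2, from −0.39 to 0.17 for Krt8, from −0.36 to 0.40 for Krt18, from −0.40 to 0.0062 for Gata3 and from −0.43 to 0.092 for Plac1. Over all entries, the 440 higher and 507 lower at an unadjusted limma p under 0.05 became 239 higher with other centring, 190 higher with exact zeros left out, 142 higher with listed probes alone, and 1519 higher and 1251 lower with array 2 not turned. The unmoderated linear model gave no value for Eomes, whose arrays were equal. Each array holds both cell types, so its ratio is already the paired comparison, and no further pairing was possible.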

Other observations

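Lgals3, a galectin gene found in trophoblast and in many other cells, and Krt23 had negative values on each array, with −1.42 and −0.36 for Lgals3 and −0.08 and −1.34 for Krt23. Each of these values, also chosen after they were seen, rested mainly on 1 array.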
